A study of Mus musculus with 2 samples.

Results

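This account covers 32 mouse genes of glycolysis and of the response to low oxygen, out of 31053 genes in the files, in single cells of tongue tumours. The genes were chosen by symbol from a list of known pathway members, and all 32 were found in both libraries. They are Slc2a1, Slc16a3 and Slc16a1 (carriers of glucose and lactate), Hk1, Hk2, Gpi1, Pfkl, Pfkp, Pfkm, Aldoa and Tpi1 (upper glycolysis), Gapdh, Pgk1, Pgam1, Eno1, Pkm and Ldha (lower glycolysis), Pdk1, Pfkfb3 and Pfkfb4 (control of the pathway), Egln1, Egln3 and Hif1a (oxygen sensing), and Bnip3, Car9, Ankrd37, Ndrg1, P4ha1, P4ha2, Ddit4, Adm and Higd1a (genes known to be induced by low oxygen). Wild type C57BL/6 mice had been given the carcinogen 4NQO, which produces squamous tumours of the tongue and serves as a model of head and neck cancer. The mice then received JQ1, an inhibitor of the BET bromodomain proteins that bind acetylated chromatin, or control, for 10 days. Every cell in both groups therefore comes from tissue exposed to 4NQO. The age and sex of the mice, their number behind each library, whether animals were pooled and what the control treatment consisted of are not stated in the labels.

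Glycolysis turns glucose into pyruvate, and lactate dehydrogenase turns pyruvate into lactate, which leaves the cell through monocarboxylate carriers. When oxygen is low, the prolyl hydroxylases encoded by Egln1 and Egln3 stop marking the HIF alpha proteins for destruction, and HIF raises transcription of glucose carriers, most glycolytic enzymes and genes such as Bnip3 and Car9. Squamous tumours often combine high glycolysis with regions of low oxygen, while neutrophils rely on glycolysis even where oxygen is present.

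The labels give 1 library per treatment, so treatment and library cannot be told apart, and no difference here has a replicate or a test. UMIs, distinct RNA molecules counted by a molecular tag, numbered 118382532 over 9754 barcodes in control and 99565417 over 16233 barcodes in JQ1, and 40 barcodes were common to both. Filters kept 8150 control cells, at a median of 11302.5 UMIs, and 14044 JQ1 cells, at 3879. Classes are named by resemblance to marker lists, and the libraries differed in their mix: 5185 control and 1309 JQ1 cells were epithelial-like, and 868 and 4665 were fibroblast-like. Each of the 6 epithelial-like clusters carried 12 to 17 markers of that class at 2-fold or more over the median of all clusters, keratins among them. The study's title names immune cells, and those were a minority here, with 551 control and 689 JQ1 neutrophil-like, 264 and 486 T-like and 196 and 358 macrophage or dendritic-like cells. A level is the sum of a gene's UMIs over the cells of a class in 1 library, given per 1000000 UMIs of those cells (CPM). A member was taken as measured where both libraries together gave 50 or more UMIs and the mean level was at least 10 CPM, and as higher or lower when the 2 libraries differed by at least 1.5-fold. Intervals are exact 95% intervals, covering counting error only. Each UMI stands for the 3′ end of a transcript, so that a level does not grow with gene length, although capture can differ between genes.

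In epithelial-like cells the members lay lower in the JQ1 library than in the control library, with a median log2 ratio of -0.34 against 0.13 over all 7783 measured genes. Of 29 measured members, 7 were at least 1.5-fold lower and 0 were at least 1.5-fold higher. Over all measured genes, 4.27% were lower and 9.07% were higher by that size. The 7 were Egln3, Bnip3, Ankrd37, Eno1, Ldha, Pgk1 and Aldoa. The enzymes of lower glycolysis had a median log2 ratio of -0.59 (3 of 6 lower) and the induced genes one of -0.50 (2 of 8 measured lower), while the median of upper glycolysis was -0.23 (1 of 7 measured lower). The class was a different mix of keratinocyte clusters in each library, and these counts were smaller when the clusters were given equal weight, as described further on. Genes for the dissociation response (Fos, Jun, Hspa1a and related genes) in epithelial-like cells summed to 7456 (control) and 11706 CPM (JQ1), salivary gland transcripts, which such cells should lack, to 16.8 and 322 CPM, and mitochondrial genes to 2.88% and 4.16% of UMIs. The part of these differences in the members' values was not tested.

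Egln3, a prolyl hydroxylase that is itself induced by HIF, had the lowest ratio of the measured members. It stood at 58.7 CPM in control (5901 UMIs) and 22.5 CPM in JQ1 (425 UMIs), 2.61-fold lower (2.36 to 2.88). Its relative Egln1, the main oxygen sensor in most cells, differed less, with 146 CPM in control and 105 in JQ1, 1.39-fold lower (1.32 to 1.45). Egln3 held 28.7% of the UMIs of the pair in control and 17.7% in JQ1. Hif1a, which encodes the alpha subunit that the hydroxylases mark, was level at 333 and 336 CPM, a ratio of 1.01 (0.98 to 1.03). The sensing genes thus ranged from the lowest ratio of the list to a ratio of about 1.

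Among the genes induced by low oxygen, Bnip3, a mitochondrial protein that directs mitophagy, had 61.5 CPM in control and 29.1 in JQ1, 2.11-fold lower (1.94 to 2.31). Ankrd37, an ankyrin-repeat protein and HIF target, had 29.8 and 15.7 CPM, 1.89-fold lower (1.68 to 2.14). Just short of 1.5-fold stood Higd1a, a small protein of the inner mitochondrial membrane, with 374 and 251 CPM (1.49-fold lower, 1.44 to 1.53). Ddit4, an inhibitor of mTORC1 signalling also known as Redd1, had 121 and 84.7 CPM (1.42-fold lower, 1.35 to 1.502). Ndrg1, a stress-responsive gene, had 238 and 169 CPM (1.40-fold lower, 1.35 to 1.46). The other induced genes gave smaller ratios or lay on the other side. Adm, the vasodilator peptide adrenomedullin, was at 87.8 CPM in control and 108 in JQ1, and the collagen prolyl hydroxylases P4ha1 and P4ha2 at 33.6 and 34.5 CPM and at 19.4 and 15.7 CPM. Car9, the cell-surface carbonic anhydrase often used as a marker of low oxygen, was too rare to count as measured, with 335 control and 47 JQ1 UMIs (3.33 and 2.49 CPM).

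The final steps of glycolysis held 3 of the 7 lower members. Ldha, the lactate dehydrogenase subunit that favours lactate, stood at 849.8 CPM in control and 498 in JQ1, 1.71-fold lower (1.67 to 1.74). Eno1, the enolase step, was 1.84-fold lower (1.77 to 1.90), at 337 and 184 CPM. Its near copy Eno1b held 177 control and 56 JQ1 UMIs over all kept cells against 35119 and 8423 for Eno1, so that reads split between them would be few. Pgk1, the first step that yields ATP, was 1.66-fold lower (1.61 to 1.70), at 471 and 284 CPM. Pgam1, the mutase step, was at 629 and 457 CPM (1.38-fold lower, 1.35 to 1.41). Gapdh, the step that makes NADH, and Pkm, pyruvate kinase, differed by a smaller ratio, with 2113 and 1740 CPM for Gapdh and 1203 and 990.4 CPM for Pkm.

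Upper glycolysis and transport showed little difference beside these. Aldoa, which splits fructose bisphosphate, was the exception, at 582 CPM in control and 366 in JQ1, 1.59-fold lower (1.55 to 1.63). A second entry of that symbol held 0 UMIs in both libraries. The hexokinases, which trap glucose in the cell, leaned in opposite directions: Hk2 had 110.0 and 85.8 CPM (1.28-fold lower, 1.22 to 1.35), and Hk1 had 54.9 and 66.7 CPM. Hk2 thus made up 66.7% of the UMIs of the pair in control and 56.3% in JQ1. Slc2a1, the glucose carrier GLUT1, had 217 CPM in control and 192 in JQ1 (1.13-fold lower, 1.09 to 1.17). Of the lactate carriers, Slc16a3 (MCT4, known for lactate export) had 24.4 and 17.6 CPM (1.38-fold lower, 1.23 to 1.56) and Slc16a1 (MCT1) had 53.6 and 64.8 CPM. Pdk1, a kinase that shuts off pyruvate dehydrogenase, was level at 30.5 and 30.6 CPM. Tpi1 (321 and 274 CPM), Gpi1 (225 and 198), the phosphofructokinases Pfkl (73.5 and 58.3) and Pfkp (65.6 and 72.8) and their regulator Pfkfb3 (13.98 and 11.6) all stayed within 1.5-fold. The 3 members not measured here were Pfkm, Pfkfb4 and Car9.

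**Figure D1:**
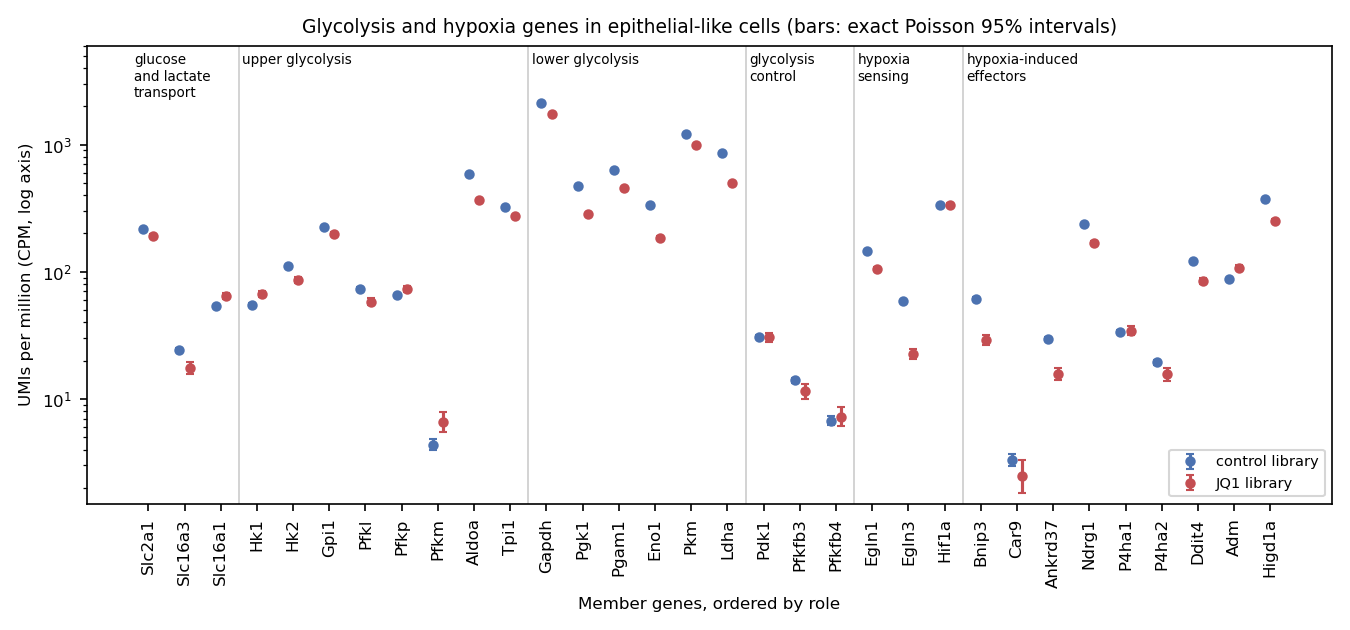
Level of each of the 32 members in epithelial-like cells of the control (blue) and JQ1 (red) libraries, in CPM on a log axis, with exact Poisson 95% intervals. Egln3, Bnip3, Ankrd37, Eno1, Ldha, Pgk1 and Aldoa lie at least 1.5-fold lower in JQ1, while Hif1a and Pdk1 lie level.

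The promoters of the 4 measured members with the lowest ratios in epithelial-like cells are shown because HIF is known to bind the letters ACGTG. They are the 250 bases before the first listed transcription start, from RefSeq on GRCm38.p6, read on the gene's strand, with each ACGTG on either strand in capitals (CACGT is its reverse complement). Egln3 lies on the minus strand with its window at chr12:54203875-54204124, Bnip3 on the minus strand at chr7:138909507-138909756, Ankrd37 on the minus strand at chr8:45999851-46000100 and Eno1 on the plus strand at chr4:150236458-150236707.
Egln3: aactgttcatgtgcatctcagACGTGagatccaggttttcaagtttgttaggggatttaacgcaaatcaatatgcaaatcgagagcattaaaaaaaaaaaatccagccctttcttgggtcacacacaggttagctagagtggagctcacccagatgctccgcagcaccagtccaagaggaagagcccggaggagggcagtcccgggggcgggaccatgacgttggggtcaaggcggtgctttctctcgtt
Bnip3: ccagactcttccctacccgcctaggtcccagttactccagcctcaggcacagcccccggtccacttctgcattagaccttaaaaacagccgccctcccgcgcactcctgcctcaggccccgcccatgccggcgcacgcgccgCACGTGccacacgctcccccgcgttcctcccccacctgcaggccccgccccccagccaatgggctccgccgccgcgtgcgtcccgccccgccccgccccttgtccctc
Ankrd37: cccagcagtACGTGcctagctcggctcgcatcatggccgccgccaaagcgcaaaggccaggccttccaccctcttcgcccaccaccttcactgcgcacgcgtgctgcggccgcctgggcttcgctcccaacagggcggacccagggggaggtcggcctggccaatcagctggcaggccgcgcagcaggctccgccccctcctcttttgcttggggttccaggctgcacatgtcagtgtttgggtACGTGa
Eno1: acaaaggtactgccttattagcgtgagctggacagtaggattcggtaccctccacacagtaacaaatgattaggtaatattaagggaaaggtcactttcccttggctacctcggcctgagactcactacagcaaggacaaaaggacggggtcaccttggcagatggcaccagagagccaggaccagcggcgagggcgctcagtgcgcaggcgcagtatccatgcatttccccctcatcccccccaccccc
The Egln3 window holds 1 such match, 229 bases before the start, and the Ankrd37 window holds 2, the nearer 6 bases before it. In Bnip3 the matches on both strands overlap in 1 CACGTG run, 107 bases before the start, which is also the letters of the E-box read by Myc and related factors. The window of Eno1 holds no ACGTG on either strand, nor do those of its other 2 listed starts, which says nothing of sites elsewhere. Only ACGTG was searched. The related letters GCGTG, which the printed Eno1 window holds, were not marked. Of the 31 members with a RefSeq promoter (all but Ndrg1), 18 held ACGTG on either strand in the first window, a share of 58.1%, against 17.6% of the first windows of 17491 protein-coding genes and 16.6% of all 27025 genes listed. The CACGTG run was in 5 of the 31 (16.1%) and in 6.64% of coding genes. The list was drawn up from known pathway genes, many of them established HIF targets, so these shares describe the list and are no result of the libraries.

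Keratinocytes fell into 6 clusters, and the summed level of the members differed more between clusters than between libraries. They are called by a keratin or a leading gene: Krt15 (1026 control and 637 JQ1 cells, with basal genes such as Trp63 and Col17a1), Krt13 (812 and 329, led by Gsta1 and Mt4), Krt6b (776 and 214, led by Krt6b, Krt13 and Krt4), Krt16 (708 and 90, with Krt17), Krt42 (991 and 34) and Stmn2 (872 and 5). The last 2 had too few JQ1 cells for a comparison. The Krt13 cluster is thus not the only one with high Krt13, and it had both Krt13 and Krt15 among its 10 leading genes. The summed level of the 32 members was highest in the Krt16 cluster in both libraries, at 12087 (control) and 10538 CPM (JQ1), and lowest in the Krt15 cluster, at 6583 and 5293 CPM. In the Krt13 cluster it was 7325 CPM in control and 5658 CPM in JQ1, in the Krt6b cluster 8677 and 8709 CPM. The control library alone gave 9813 CPM for the Stmn2 cluster and 7972 CPM for the Krt42 cluster.

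Slc2a1, Bnip3, Car9, Ndrg1 and Ddit4 each stood highest in the Krt16 cluster in both libraries. Bnip3 was at 130.3 CPM in control and 105 in JQ1 there, against 16.0 and 13.0 CPM in the Krt13 cluster. Slc2a1 was at 449.6 and 427 CPM in the Krt16 cluster and at 145 and 148 CPM in the Krt6b cluster. Car9 counted as measured in the Krt16 cluster alone, with 11.4 CPM in control (174 UMIs) and 14.9 in JQ1 (28 UMIs), and it did not exceed 2.94 CPM in any other keratinocyte cluster and library. The Stmn2 cluster, nearly all of it from the control library, stood apart in another way: Egln3 was at 15.9 CPM there and Hif1a at 137 CPM, each lower than in the control cells of any other keratinocyte cluster, as were Ddit4 (53.7 CPM) and Adm (16.2 CPM). Other hypoxia genes were not low in it: P4ha1 (51.3 CPM) and P4ha2 (29.7 CPM) were higher than in any other control keratinocyte cluster, and Egln1 (123 CPM) was above its level in the Krt13 cluster (103 CPM). The same cells had the highest Ldha (1302 CPM), Pgk1 (870.5 CPM) and Eno1 (540.2 CPM) of the 6 clusters. High glycolytic enzymes came with low Egln3 in the Stmn2 cluster, whereas the Krt16 cluster of the control library had both Ldha (1074 CPM) and Egln3 (91.6 CPM) among the higher values.

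**Figure D2:**
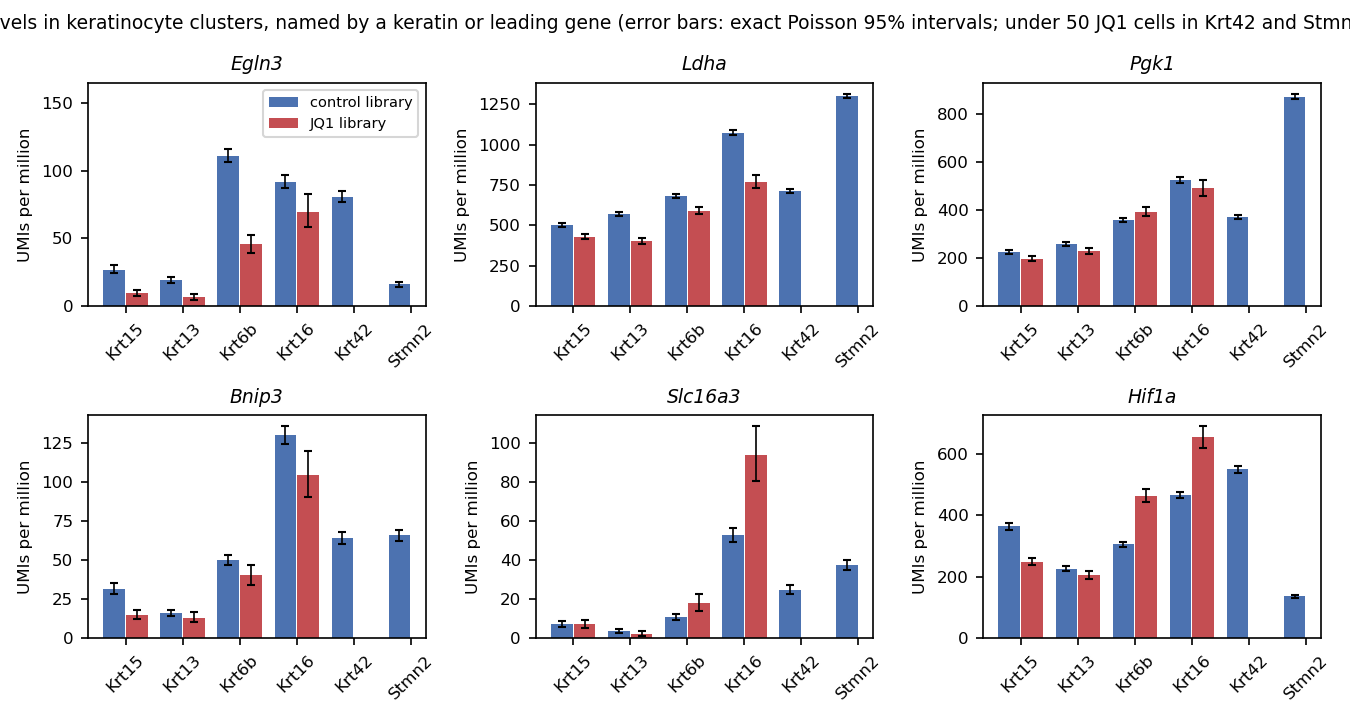
Levels of Egln3, Ldha, Pgk1, Bnip3, Slc16a3 and Hif1a in 6 keratinocyte clusters of the control (blue) and JQ1 (red) libraries, in CPM with exact Poisson 95% intervals. Ldha and Pgk1 are highest in the Stmn2 cluster, which held 872 control and 5 JQ1 cells, so that no JQ1 bar is drawn there or for Krt42.

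Within each of the 4 clusters with at least 50 cells in both libraries, the members' median was again below that of all genes (in the Krt6b cluster it was 0.07 after thinning to 1000 UMIs), but fewer members passed 1.5-fold than in the whole class. In the Krt15 cluster 4 of 28 measured members were lower (1.8% of all measured genes) and 0 were higher (6.91%). In the Krt13 cluster 3 of 28 were lower (1.47%) and 2 higher (11.5%). In the Krt6b cluster 3 of 28 were lower (5.94%) and 2 higher (13.2%), and in the Krt16 cluster 2 of 30 were lower (5.54%) and 3 higher (16.4%). Median log2 ratios of the members were -0.29, -0.27, -0.22 and -0.15 in that order, against 0.10, 0.15, 0.11 and 0.17 over all measured genes. The shares of lower members in the Krt16 cluster, 2 of 30, were close to the background, while those of the Krt15 and Krt13 clusters were above it.

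Egln3 was lower in 3 of the 4 clusters. It was at 26.9 CPM in control and 9.35 in JQ1 in the Krt15 cluster (2.88-fold lower, 2.19 to 3.82). In the Krt13 cluster it was at 18.8 and 6.30 CPM (2.99-fold lower, 2.08 to 4.43) and in the Krt6b cluster at 111 and 45.6 CPM (2.44-fold lower, 2.10 to 2.85). The Krt16 cluster, with 91.6 and 69.6 CPM (1.32-fold lower, 1.10 to 1.59), did not reach 1.5-fold. Ddit4 was also lower in 3 of the 4, with 152 and 94.5 CPM in the Krt15, 97.5 and 44.9 in the Krt6b and 189 and 117 in the Krt16 cluster. Ankrd37 was lower in the Krt15 (17.0 and 9.78 CPM) and Krt16 clusters (40.4 and 23.9 CPM). Bnip3 was lower in the Krt15 cluster alone, at 31.6 and 14.8 CPM. Aldoa, at 499 and 302 CPM, and Tpi1, at 262 and 175 CPM, were lower in the Krt13 cluster alone. Gapdh in the Krt13 cluster (1990 and 1372 CPM) and Aldoa in the Krt15 cluster (386 and 260.1 CPM) ranked high but stayed within 1.5-fold. Members named here and in the next paragraph that were not among the first 4 of a cluster were chosen after their values were seen, as those past 1.5-fold.

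Hk2 set the Krt6b cluster apart in control. It was at 227 CPM there and 98.1 CPM in JQ1, 2.32-fold lower (2.09 to 2.57), while the other 3 clusters lay between 78.6 and 104 CPM in control and between 74.2 and 91.7 CPM in JQ1. The JQ1 value of the Krt6b cluster was thus close to that range. Hif1a was higher in the Krt6b cluster (306 CPM in control and 464 in JQ1) and leaned the other way in the Krt15 cluster (364 and 248 CPM), while its value over the whole class was level. Lactate carriers were higher in some clusters: Slc16a1 in the Krt13 cluster (49.6 and 79.7 CPM) and the Krt16 cluster (59.2 and 95.04 CPM), and Slc16a3 in the Krt6b (10.9 and 17.9 CPM) and Krt16 clusters (52.9 and 94.0 CPM). P4ha1 was higher in the Krt13 (19.2 and 30.4 CPM) and Krt16 clusters (41.3 and 74.9 CPM). When cells were gated one by one by their most abundant keratin in place of clusters, Slc16a3 in the gate for Krt16 and Krt6 genes had a log2 ratio of -0.22. That gate held 3865 control and 781 JQ1 cells, against 708 and 90 in the Krt16 cluster. It is a far wider set of epithelial-like cells, so the value is not one for the Krt16 cluster defined another way.

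Weighting the 4 clusters equally made the difference smaller than in the whole class. The members' median log2 ratio was then -0.16 against 0.14 over all genes, with 2 members lower (2.03% of genes) and 1 higher (7.53%). The 2 were Egln3, at -0.93, and Ddit4, at -0.66, and the higher one was Slc16a3, at 0.70. Pgk1 went from -0.73 in the whole class to -0.06, Eno1 from -0.88 to -0.41, Ldha from -0.77 to -0.37 and Bnip3 from -1.08 to -0.40. Leaving out the Stmn2 and Krt42 clusters, without weighting the others, gave a median of -0.33 with 9 members lower. Of the 26 members measured in all 4 clusters, 12 had a log2 ratio below 0 in each of the 4, 2 had one above 0 in each, and 0 were lower by 1.5-fold in each. The matching shares of all genes, here and for the 9, were not computed, so these counts have no background beside them. With equal weight Egln3 still had the lowest ratio of the members, while Pgk1 was near 0.

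**Figure D3:**
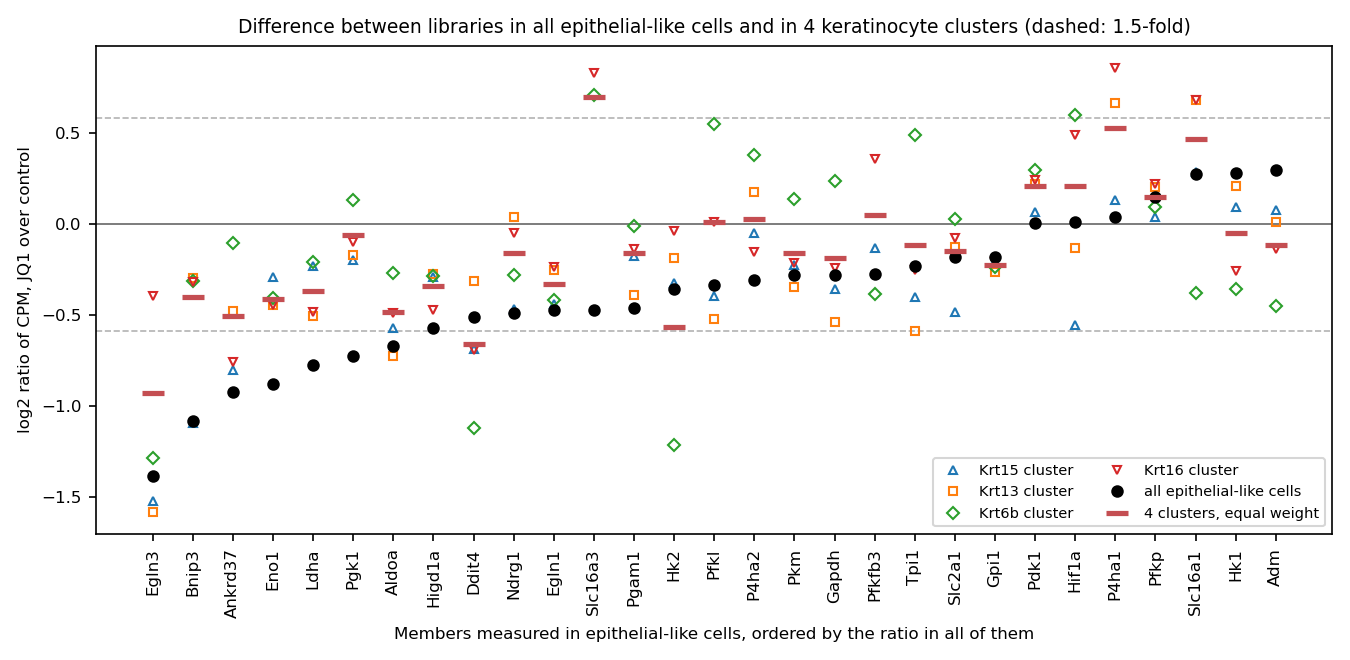
Log2 ratio of CPM, JQ1 over control, for the 29 members measured in epithelial-like cells. Black points show all epithelial-like cells, open symbols the 4 keratinocyte clusters, red dashes their mean CPM with equal weight, and dashed lines 1.5-fold. Egln3 stays below the lower line with equal weight, while Pgk1 moves to near 0.

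Detection at equal depth gave the same order for Egln3. After each cell was thinned to 1000 UMIs, 5.52% of control epithelial-like cells (4.91 to 6.18) and 1.86% of JQ1 ones (1.18 to 2.78) held an Egln3 UMI. The unthinned shares were 35.1% and 13.4%, at median depths of 17577 and 12189 UMIs. Thinning left out 24 control and 72 JQ1 cells with fewer UMIs. In fibroblast-like cells, the class with the lowest Egln3 level in control (median 2956.5 UMIs, and 3850 in JQ1), the thinned shares were 0.244% and 0.396%. For Bnip3 the thinned shares in epithelial-like cells were 5.31% (4.71 to 5.96) and 2.83% (1.98 to 3.91), and for Ankrd37 2.38% and 1.05%. In the Krt6b cluster the thinned Egln3 share was 10.1% in control (8.08 to 12.5) and 2% in JQ1 (4 of 200 cells, 0.548 to 5.04).

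Other genes of the same pathways lay on both sides in epithelial-like cells. Of 27 further genes of glycolysis and its branches, 15 were measured, 1 was lower and 1 higher. Of 22 further hypoxia regulators and HIF targets, 17 were measured, 2 were lower and 3 higher. Over all measured genes of these cells, 4.27% were lower and 9.07% higher. Each list had a median log2 ratio of 0.16, near the 0.13 of all genes. The lower genes were Ndufa4l2, a mitochondrial HIF target, at 198 CPM in control and 41.5 in JQ1, Aldoc, an aldolase isoform, at 14.1 and 6.36, and Ero1l, an oxidase of the endoplasmic reticulum, at 70.2 and 45.1. The higher ones were Pdk4, a pyruvate dehydrogenase kinase, at 5.76 and 26.2 CPM, Angptl4, an inhibitor of lipoprotein lipase, at 9.63 and 24.7, and Plod2, a collagen lysyl hydroxylase, at 12.5 and 26.4, together with Epas1, which encodes HIF-2 alpha, at 15.9 and 24.3. Within the 4 keratinocyte clusters Ndufa4l2 was lower in each, by 1.69-fold in the Krt16 cluster up to 5.73-fold in the Krt13 cluster. Ero1l was lower by 1.5-fold in 0 of the 4, with ratios from 0.87 in the Krt15 to 1.30 in the Krt16 cluster, and Aldoc had ratios of 0.911 and 0.95 in the Krt6b and Krt16 clusters, where it was measured. Pdk4, Plod2 and Epas1 were not higher in the Krt6b cluster, at ratios of 0.994, 0.97 and 1.03, while Pdk4 had ratios of 1.74 and 3.104 in the Krt15 and Krt13 clusters. Vegfa, the angiogenic growth factor, was within 1.5-fold at 121 and 89.5 CPM. Epas1 and Vegfa were named after their values were seen.

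Across cell classes each library gave a separate view of where the members stand. Epithelial-like cells had the highest level for 11 of the 32 members in each library, and 16 of 32 members had the same top class in both. The enzymes Gapdh, Pgk1, Pgam1, Eno1, Pkm and Ldha were highest in epithelial-like cells in both libraries. Slc16a3 was highest in neutrophil-like cells, at 215 CPM in control and 203 in JQ1, against 46.8 and 39.3 CPM in the next class, macrophage or dendritic-like cells. Slc16a1 had 0 UMIs among 924557 in control neutrophil-like cells, where 3 UMIs would make 3.24 CPM, and 14.6 CPM in JQ1. Of the 28 JQ1 UMIs, 19 came from a cluster led by Camp, found in JQ1 alone (22.4 CPM). The other 9 came from the cluster led by Ccl3 (8.42 CPM). Hif1a was highest in T-like cells, at 566 and 611 CPM, and Egln3 in control stood at 65.7 CPM in T-like, 59.5 in neutrophil-like and 58.7 in epithelial-like cells, with the widest interval (T-like) covering all 3. In JQ1 the skeletal muscle-like (44.7 CPM), T-like (41.6 CPM) and neutrophil-like cells (41.2 CPM) were above the epithelial-like cells (22.5 CPM). Pfkfb3, which makes the activator of phosphofructokinase, stood at 106 and 78.1 CPM in endothelial-like cells. Hexokinase use split by class: Hk2 held 88.7% of the UMIs of Hk1 and Hk2 in control fibroblast-like cells and 80.1% in JQ1, but 12.8% and 9.70% in endothelial-like cells. Ndrg1, a gene tied to myelin as well as to low oxygen, was at 939 CPM in JQ1 Schwann-like cells (1107 cells), over all other classes of that library. The control library held 37 such cells, too few for a level. Car9 was rare in every class. In control it was at 7.21 CPM in macrophage or dendritic-like cells (6 UMIs, interval 2.64 to 15.7), at 3.33 CPM in epithelial-like cells (335 UMIs) and at 0 UMIs in the other 7 classes compared. In JQ1 it was at 3.27 CPM in skeletal muscle-like cells (3 UMIs), at 2.49 in epithelial-like (47 UMIs) and at 2.18 in macrophage or dendritic-like cells (4 UMIs), whose intervals overlap.

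**Figure D4:**
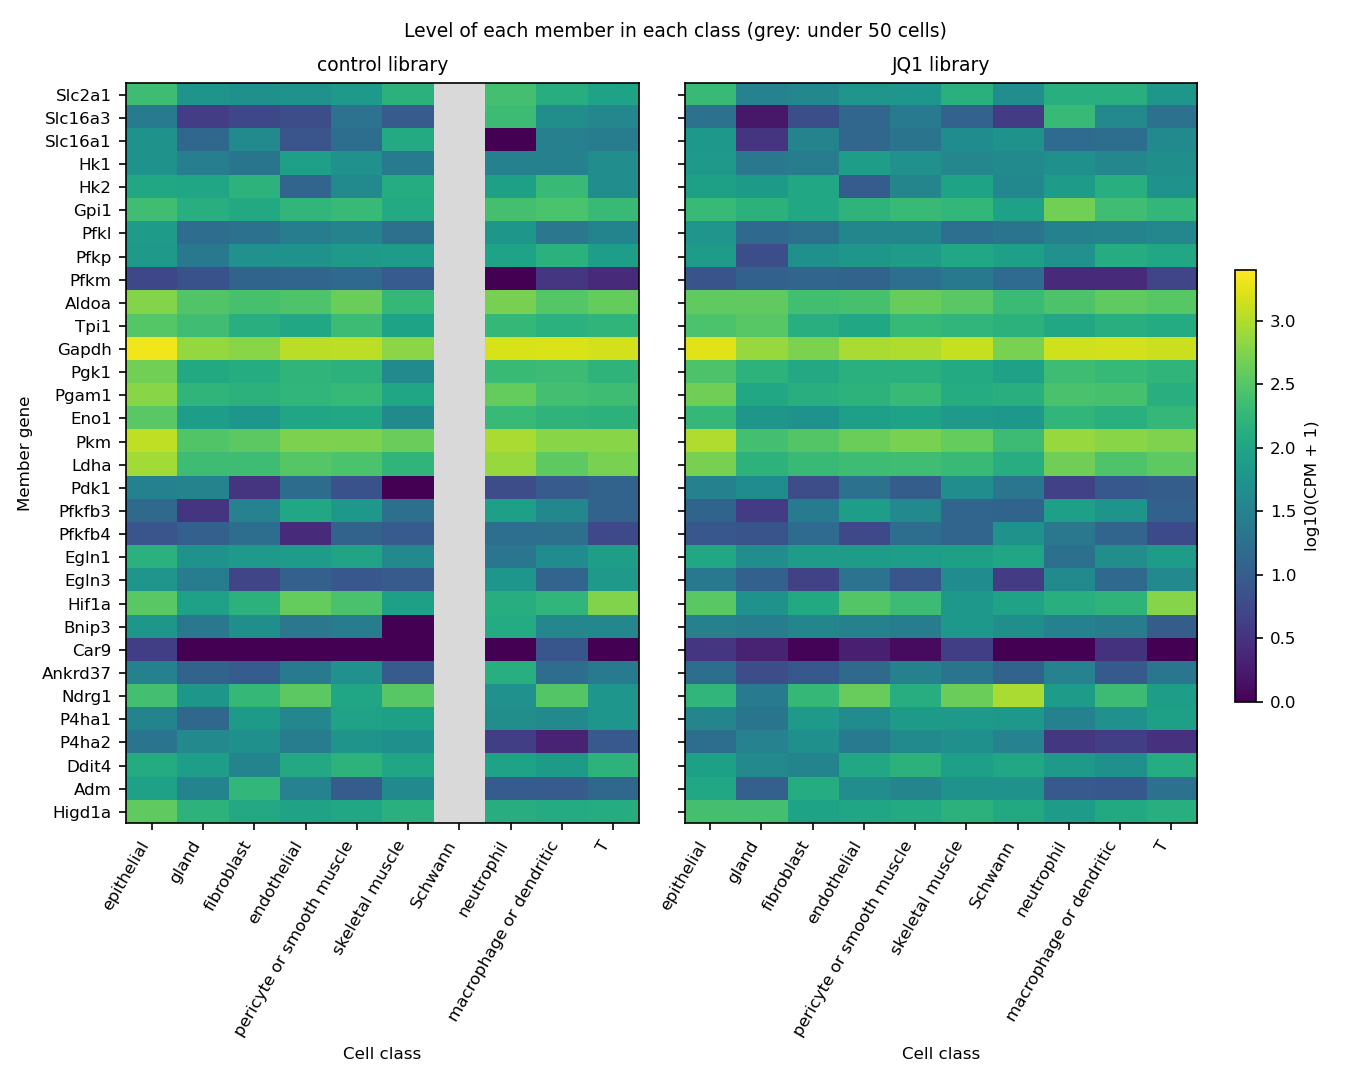
Level of each member in 10 cell classes of the control and JQ1 libraries, as log10(CPM + 1), with grey where a library held under 50 cells of a class. Slc16a3 stands out in neutrophil-like cells, Hif1a in T-like cells and Ndrg1 in JQ1 Schwann-like cells.

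Neutrophil-like cells gave the most members past 1.5-fold of any named class, but large shares of all their measured genes passed it too. Of 26 measured, 11 were lower (13.1% of all measured genes) and 2 were higher (28.6%), with a median log2 ratio of -0.37 against 0.15 over all 4510 measured genes. Ankrd37 was at 133 CPM in control (123 UMIs) and 31.3 in JQ1 (60 UMIs), 4.25-fold lower (3.097 to 5.89). Bnip3 was 4.07-fold lower (2.94 to 5.71), at 121 and 29.7 CPM. Aldoa was at 501 and 281 CPM, and Gpi1, which interconverts glucose and fructose phosphates, was higher at 249.8 and 467 CPM (1.87-fold, 1.62 to 2.17). The other higher member was Hk1, at 30.3 and 50.6 CPM. The other lower ones were Slc2a1, Ldha, Pfkl, Tpi1, Higd1a, Pfkp, Pgam1 and P4ha1, all named, like Hk1, after their values were seen. The class held different cells in the 2 libraries: a cluster led by the granule genes Camp and Ngp, as in immature neutrophils, had 0 control and 128 JQ1 cells. That cluster had Gpi1 at 802 CPM, Slc2a1 at 15.3 CPM and Bnip3 at 5.89 CPM.

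Without the Camp cluster, 551 control and 561 JQ1 cells of the cluster led by Ccl3 and Retnlg remained, and 7 of 24 measured members were lower (13.4% of genes) and 3 higher (13.2%). Gpi1 then lay slightly lower in JQ1, with a log2 ratio of -0.32, and Slc2a1 was level at 241 and 229 CPM. Bnip3 (121 and 48.7 CPM) and Ankrd37 (133 and 54.3 CPM) were still lower, as were Aldoa (501 and 228), Pgam1 (393 and 208), Ldha (743 and 402), Higd1a (132 and 83.3) and Tpi1 (185 and 118). Hif1a stood on the other side, at 129 CPM in control and 194 in JQ1, with Ndrg1 (50.8 and 79.6) and Hk1 (30.3 and 47.7). Egln3, at 59.5 and 68.3 CPM, and P4ha1, at 47.6 and 46.8 CPM, were within 1.5-fold. These members were named after their values were seen, as all 10 past 1.5-fold. Dissociation genes summed to 15190 CPM in control and 9650 CPM in JQ1 neutrophil-like cells, and gland transcripts to 68.1 and 683 CPM, whose part in these values was not tested.

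**Figure D5:**
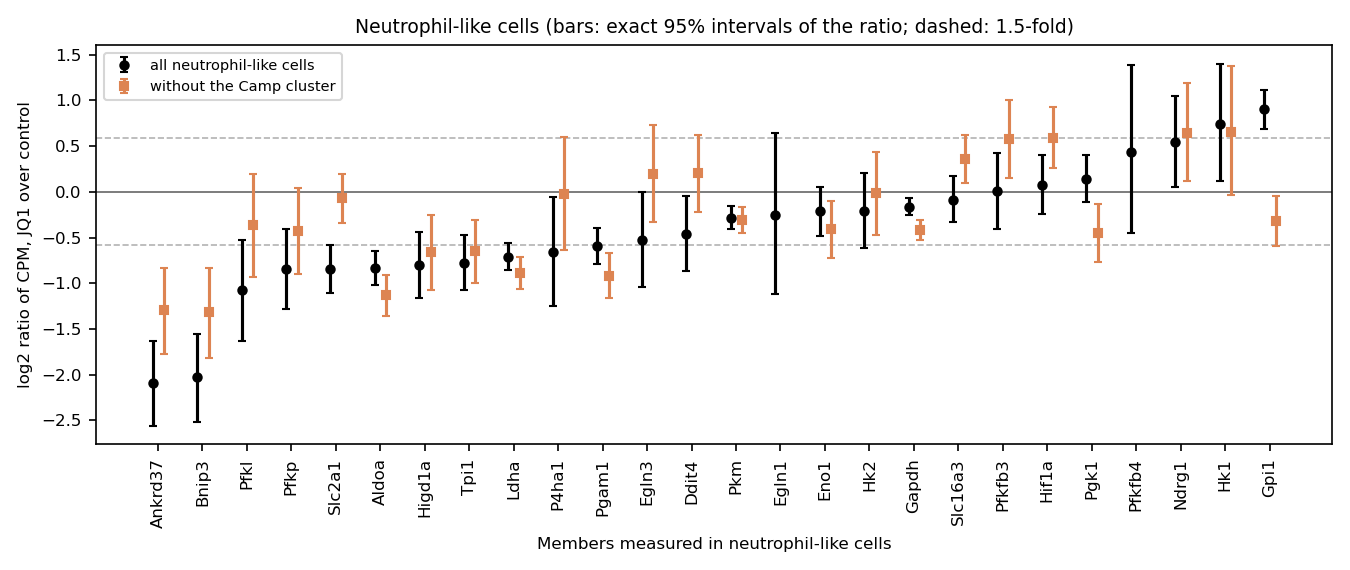
Log2 ratio of CPM, JQ1 over control, for the 26 members measured in neutrophil-like cells, with exact 95% intervals. Black points show all such cells, orange squares the cells without the Camp cluster, and dashed lines 1.5-fold. Bnip3 and Ankrd37 stay low in both, while Gpi1 crosses 0.

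T-like cells, a cluster led by Il17a with Trdc among its 10 leading genes, had 22 measured members with a median log2 ratio of -0.0035 against 0.06 over all genes, with 3 lower (5.75%) and 1 higher (11.5%). Ldha was at 523 CPM in control and 355 in JQ1, 1.47-fold lower (1.28 to 1.69) and so just inside 1.5-fold. Pgam1 was at 219 and 137 CPM, Slc2a1 at 93.9 and 62.4 and Tpi1 at 166 and 124. Egln3, lower at 65.7 and 41.6 CPM, and Slc16a1, higher at 26.6 and 40.2 CPM on 17 control UMIs, were named after their values were seen. Gland transcripts in these cells summed to 42.2 CPM in control and 870.0 CPM in JQ1. In macrophage or dendritic-like cells 1 of 24 measured members was lower (7.07%), Slc16a1 at 28.8 and 15.8 CPM (24 and 29 UMIs), and 0 were higher (14.6%). It was named after its values were seen. Those ranked first by their interval were Ndrg1 (307 and 212 CPM), Hk2 (193 and 140.2), Ldha (362 and 292) and Gapdh (1614 and 1481), all below 1.5-fold.

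Fibroblast-like cells had 0 of 27 measured members lower (2.42% of genes) and 0 higher (4.58%), with a median log2 ratio of -0.15 against 0.08 over all genes. Hk2 came nearest to the threshold, at 155 CPM in control and 105 in JQ1 (1.48-fold lower, 1.34 to 1.62). It lay on the lower side in each of 4 fibroblast-like clusters, with log2 ratios from -0.94 in the cluster led by Wif1 to -0.14 in the one led by Mmp3. Adm was at 175 and 128 CPM in the class and differed between those clusters, from 149.98 and 80.2 CPM in the Mmp3 cluster to 29.1 (9 UMIs) and 59.8 in the Wif1 cluster. Within the clusters some members did pass 1.5-fold: 5 of 27 were lower and 1 higher in the Prg4 cluster, and 2 and 2 of 27 in the Thbs4 cluster. In the Wif1 cluster it was 3 and 1 of 26, and in the Mmp3 cluster 1 and 0 of 27. The matching shares of all genes were not computed. Pfkl, named after its values were seen, was at 23.3 and 9.99 CPM in the Prg4 cluster but 9.54 (9 UMIs) and 19.2 in the Thbs4 cluster. Over the whole class Hif1a was at 151 and 117 CPM and Bnip3 at 48.5 and 35.02 CPM. Dissociation genes summed to 27884 and 29566 CPM in these cells.

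Endothelial-like cells had 1 of 28 measured members lower (2.56%), Ankrd37 at 23.4 CPM in control and 13.8 in JQ1, and 1 higher (6.98%), Egln3. Egln3 was at 9.86 CPM in control (24 UMIs) and 18.6 in JQ1 (208 UMIs), 1.88-fold higher (1.23 to 3.01), on the other side from epithelial-like cells, a difference between classes that was not tested. The cluster led by Selp, as in venules, had 9.66 and 18.1 CPM (11 and 80 UMIs), a ratio of 1.88 whose interval holds 1 (0.994 to 3.91). The one led by Flt1, as in capillaries, had 7.22 and 6.63 CPM (6 and 22 UMIs), a ratio of 0.92 (0.36 to 2.77). These intervals overlap. The cluster led by Sema3g held 0 and 4 UMIs. A lymphatic-type cluster led by Ccl21a, with 48 control and 508 JQ1 cells and so too few for a comparison, held 102 of the 208 JQ1 UMIs at 45.4 CPM and 7 of the 24 control UMIs, so that the value of the whole class also carries its different mix of clusters. Ankrd37 in the Flt1 cluster was at 51.8 and 24.1 CPM. In the Selp cluster it was at 10.5 and 8.83 CPM on 12 control UMIs. Ldha was at 322 and 217 CPM over the class and Pfkfb3 at 106 and 78.1. In pericyte or smooth muscle-like cells, 2 of 29 measured members were lower (4.86%), Pfkfb3 (64.4 and 39.5 CPM) and Ankrd37 (50.8 and 30.4), and 1 was higher (13.8%). Pfkfb3 differed between the clusters, at 113 and 47.1 CPM in the one led by Rgs5 and 28.1 and 31.4 CPM in the one led by Myh11. The higher member was Adm, at 8.67 CPM from 7 control UMIs and 34.3 CPM from 139 JQ1 UMIs, a ratio of 3.96 (1.87 to 10.0), on the higher side in both the Rgs5 cluster (2 and 78 UMIs) and the Myh11 cluster (5 and 61 UMIs). Gapdh was within 1.5-fold at 1133 and 979 CPM.

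Gland-like cells had 8 of 25 measured members lower and 2 higher, but 19% of all their measured genes were lower and 17% higher. Those ranked first were Pfkp (22.7 and 5.57 CPM), Adm (33.6 and 10.0), Ndrg1 (61.7 and 24.5) and Egln3 (26.6 and 10.3). The class was mostly a duct-type cluster with Dcpp3 and Cyp2f2 in control (82 of 146 cells) and mostly a mucous cluster led by Muc5b in JQ1 (1172 of 1309 cells). Within the Muc5b cluster Ndrg1 was at 12.2 and 16.1 CPM, Adm at 13.5 and 6.89 and Pfkp at 4.06 and 2.98, and the members' median log2 ratio was 0.21. In the Dcpp3 cluster that median was -0.55, against -0.22 over all genes. There 9 of 19 measured members were lower and 0 higher, against 3 and 3 of 24 in the Muc5b cluster. The matching shares of all genes were not computed. The 9, named after their values were seen, were Ddit4, Aldoa, Ldha, Pgam1, Gapdh, Hk2, Higd1a, Pgk1 and Eno1. Adm (61.0 and 64.3 CPM), Pfkp (48.0 and 50.4) and Ndrg1 (129 and 168) were not lower there. The median of -0.31 in the class thus joins clusters on opposite sides of 0. Egln3 was at 20.3 CPM in control (15 UMIs) and 9.43 in JQ1 in the Muc5b cluster and at 35.1 (19 UMIs) and 25.7 CPM in the Dcpp3 cluster. The 2 higher members, Higd1a (155 and 241 CPM) and P4ha1 (12.5 and 20.1 CPM), were named after their values were seen. In skeletal muscle-like cells, which carried the muscle stem cell genes Pax7, Myod1 and Myf5, 1 of 22 measured members was lower (14.7%) and 8 were higher (21.5%), on only 119142 control UMIs. Gapdh was at 646 and 1248 CPM, Aldoa at 185 and 336, Pgk1 at 42.0 (5 UMIs) and 119, and the lower member Slc16a1 at 118 (14 UMIs) and 44.7. Bnip3, counted among the 8 and named after its values were seen, had 0 control UMIs, where 3 UMIs would make 25.2 CPM, and 63.2 CPM in JQ1. The log2 ratio of Aldoa was 0.86 over all these cells and -0.13 after thinning to 1000 UMIs. The thinned value rests on few UMIs and has no interval here, so that the direction is not settled.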

How the data were processed

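The files hold raw UMI counts per gene and cell barcode, deposited by the authors as 10x matrices made with Cell Ranger 3.1.0, with Seurat 4.0.0 and the mm10 build also named, per the submitters' processing notes. The libraries are 10x 3′ gene expression libraries, per the labels' protocols. Total counts were 118382532 in the control and 99565417 in the JQ1 library, and the lowest barcode held 500 UMIs, so that barcodes had been filtered before deposit.

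Barcodes needed 200 genes or more and less than 20% of their UMIs from mitochondrial genes (1485 control and 1765 JQ1 barcodes failed), and Scrublet's doublet calls were removed (119, or 1.44%, and 424, or 2.93%). Both libraries were clustered together (scanpy 1.11.5, leidenalg 0.10.2, Python 3.11.15; 2000 variable genes, 30 principal components, 15 neighbours, resolution 1.0), leaving out the 81 member and pathway genes. Clusters were named from marker lists by a rule that was changed after the cluster table was seen and before member values were read: most own markers among the 10 leading genes, and no name under 50 cells or where another class came close. For each class and library, CPM is a gene's summed count over the total count. With 1 library per group no test was possible. Intervals are exact Poisson (levels), exact conditional (ratios) and exact Clopper-Pearson (shares), at 95% and for counting error only (scipy 1.17.1). The ratios and their intervals were run on simulated Poisson counts. Those hold no variation between cells, animals or libraries, so the run checks the calculation only. The members and the lists beside them were chosen with earlier results of these data known.

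In epithelial-like cells the 12 measured members whose ratio interval lay farthest from 1, and 9 listed genes, were named. In each other class the first 4 by that rank were named, and of the pathway genes the first 3 in each direction. Alternatives covered cell and gene filters, scaling, clustering, gating by keratin, thinning to 1000 UMIs and the fold threshold. Leaving out the Camp, Cyp2f2 or Stmn2 and Krt42 clusters and the shared barcodes was chosen after seeing the data, as was the minimum of 10 thinned UMIs in each library for a member's value after thinning. Promoters came from RefSeq on GRCm38.p6, of which 31 of 32 members had one.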

Additional observations from a re-analysis of the deposited data

Results flagged for a closer look

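For 6 members the ratio of JQ1 to control passed 1.5-fold in opposite directions in different cell classes, with intervals that leave out 1 and at least 20 UMIs in each library, a minimum set after seeing the values. How many of all genes meet that rule was not computed, so the 6 have no background beside them. The difference between classes was not tested, and keratinocyte clusters are parts of the epithelial-like class. Several of these values move when the clusters of a class, which differ in share between libraries, are taken apart or when depth is made equal. Egln3 had log2 ratios of -1.38 in epithelial-like cells, -1.52, -1.58 and -1.28 in the Krt15, Krt13 and Krt6b clusters, -0.66 in T-like and -1.36 in gland-like cells, but 0.91 in endothelial-like cells. Within clusters it was 0.91 (Selp) and -0.12 (Flt1) in endothelial-like cells, and -1.11 (Muc5b) and -0.45 (Dcpp3) in gland-like cells. The intervals of the ratio in the Selp, Flt1 and Dcpp3 clusters hold 1. Aldoa had -0.67 in epithelial-like cells, -0.72 in the Krt13 cluster and -0.83 in neutrophil-like cells, but 0.86 in skeletal muscle-like cells. There it was -0.13 after thinning to 1000 UMIs, with no interval given and only 119142 control UMIs before thinning, so that its direction is not settled. Slc16a1 had -0.87 in macrophage or dendritic-like cells and 0.68 in both the Krt13 and the Krt16 cluster. P4ha1 had -0.65 in neutrophil-like cells, and 0.66 and 0.86 in the Krt13 and Krt16 clusters. Without the Camp cluster, found in JQ1 alone, the neutrophil-like value was -0.02, so that the opposite direction did not hold. Hif1a had -0.63 in gland-like cells and 0.60 in the Krt6b cluster. Within the Muc5b and Dcpp3 clusters of gland-like cells it was -0.14 and -0.30, within 1.5-fold in both. Higd1a had -0.80 in neutrophil-like and 0.63 in gland-like cells, but 0.50 in the Muc5b and -0.70 in the Dcpp3 cluster.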

How the results depend on the processing

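No paired analysis was possible because each group is 1 library. Of the members' medians recomputed under an alternative, 6 moved outside the medians of the members' interval bounds. In epithelial-like cells the median ranged from -0.47 to -0.16, and the 7 lower members became 13 with a median-ratio size factor, 2 at 2-fold and 2 with the keratinocyte clusters weighted equally (median -0.16, 1 higher), while 1 was higher with no filter on low members. The size factor gave medians of -0.42 and -0.31 in the Krt13 and Krt16 clusters, and thinning gave 0.07 in the Krt6b cluster. Slc16a3, higher in the Krt16 cluster, had -0.22 in the gate for Krt16 and Krt6 genes, which was counted as reversed. Near the cut lay 542 of 3865 control and 135 of 781 JQ1 cells of that gate. The Krt16 cluster held 708 and 90 cells, so the gate is a far wider set and the values are not for the same cells. In neutrophil-like cells the 11 lower and 2 higher members became 7 and 1 by per-cell CPM, 7 and 0 after thinning, 6 and 1 under a stricter member filter, 3 and 0 at 2-fold and 7 lower without the Camp cluster, where Gpi1 reversed to -0.32, and 1 was higher with doublet calls kept. Of these alternatives, shares of all genes were computed only for the equal weighting (2.03% lower, 7.53% higher) and without the Camp cluster (13.4% and 13.2%). The other counts have no background beside them, and the background can shift with the setting too. The gland-like median was 0.09 in the cells with less keratin RNA than the median cell and 0.21 without the Cyp2f2 cluster, where Ndrg1 reversed to 0.41. Aldoa in skeletal muscle-like cells reversed to -0.13 after thinning. For single members, 170 values moved beyond their interval, 4 reversed and 561 stayed within it. The causes were not tested. Keratinocyte clusters were not compared under the alternative that clustered each library alone. Depth limits skeletal muscle-like cells most, with 119142 control UMIs.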

Other observations

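Among neutrophil-like cells, 12 of the further glycolysis genes were measured, 0 were lower and 8 were higher in JQ1 (13.1% and 28.6% of all measured genes), with a median log2 ratio of 0.95. Tkt, transketolase of the pentose phosphate pathway, was at 115 CPM in control and 469 CPM in JQ1. Without the Camp cluster, 9 were measured and 2 were higher (13.2% of genes), with a median of 0.15, and Tkt was at 127 CPM in JQ1. The 2 were Slc2a3, the glucose carrier GLUT3, at 93.0 and 158 CPM, and Gpd2, the mitochondrial glycerol phosphate dehydrogenase, at 22.7 and 37.4 CPM. Of 12 further hypoxia genes measured over the whole class, 4 were lower (Hilpda, Plin2, Kdm3a and Egln2) and 2 higher (Mxi1 and Epas1), with a median of -0.40. Without that cluster 3 of 9 were lower (13.4% of genes), with a median of -0.47: Hilpda, an inhibitor of lipolysis, at 711 and 442 CPM, the lipid droplet coat gene Plin2 at 988 and 646 CPM, and Bnip3l, a mitophagy receptor, at 200 and 133 CPM. These genes were named after their values were seen.

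A cluster that could not be named, led by Wfdc18 and Dmbt1 with 142 control and 359 JQ1 cells, had a median log2 ratio of -0.63 over 23 measured members, against -0.42 over all its measured genes.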
